A study of Mus musculus with 27 samples.

Results

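The 3 hippocampal mRNA libraries of sham-operated mice given saline were set against the 12 mRNA libraries of the other 3 groups pooled: 4 of sham-operated mice given xanthohumol (labelled Xmo in the sample names), 4 of ovariectomised (OVX) mice given saline, and 4 of OVX mice given Xmo. These 15 libraries are part of 27 in all; the other 12 are miRNA libraries, 3 in each of the same groups. All mice were of the ICR strain, an outbred laboratory stock, and the tissue was the hippocampus. Ovariectomy removes the main source of circulating oestrogen, the sham operation leaves the ovaries in place, and xanthohumol is a prenylated flavonoid of hops. The sham saline mice carried the operation and the vehicle, so they were not untreated. The labels give no age, dose, route, duration or number of mice per library. Replicates are separate samples per the labels, but nothing says that they came from separate animals, so the spread between them may in part be technical.

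The contrast was chosen because sham saline stood apart in these same mRNA counts. Its mRNA values are therefore given as a description, and the calls from the fitted model serve only to say which genes rose or fell. A call means an adjusted p under 0.05 in edgeR's quasi-likelihood test with Benjamini-Hochberg adjustment over 19969 genes. Levels are in CPM, the count of a gene scaled to a fixed library total, with trimmed-mean (TMM) library factors, and fold changes are sham saline over the other 12 libraries, so a positive log2 value is higher in sham saline. The comparisons among the other 3 mRNA groups use the same counts and the libraries pooled here, so they too are descriptive. The miRNA comparison did not enter the choice and is given as a test.

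Total RNA from a tissue is a mixture of cytoplasmic, nuclear and mitochondrial transcripts. The mitochondrial genome is read from both strands into long precursors, which are cut at the tRNAs into mRNAs, rRNAs and tRNAs for the respiratory chain. Most protein subunits of that chain come from nuclear genes, many of which, like those for the cytosolic ribosome, give short and abundant mRNAs. Neuronal adhesion and synaptic genes are often very long, and genes lying inside other genes can share reads with their hosts.

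Depth was 28682463 to 29552049 counts in the sham saline libraries and 20848661 to 39140593 in the other 12. The TMM factors were 0.969, 0.726 and 0.838 in sham saline libraries 1, 2 and 3, against 0.976 to 1.09 in the others. All 15 hippocampal neuron markers listed were among the tested genes, and summed to 1359 to 1696 CPM in sham saline, against 1213 to 1577 CPM in the others. Sham Xmo library 1 and OVX Xmo library 4 stood apart within their own groups and lay close to sham saline in several measures below. The leading counts are therefore also given without those 2 libraries, a choice made after seeing the data. Because they were picked for lying close to sham saline, leaving them out favours larger counts. Those larger counts are therefore no support for the contrast.

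The clearest step was at Gdf1 and Cers1, which lie on the plus strand of chromosome 8. Gdf1 encodes a secreted growth factor of the TGF-beta superfamily. Cers1 encodes a ceramide synthase of neurons. In mouse brain both proteins can be made from a single bicistronic transcript. In the deposited GRCm38.p6 coordinates Cers1 (ENSMUSG00000087408) spans chr8:70315775-70331592. Gdf1 (ENSMUSG00000109523) spans chr8:70329817-70331587, wholly within the Cers1 span. RefSeq (GRCm38.p6) gives both genes one and the same start window and gives Gdf1 a second window just before its own span. Both windows are shown because the counts of the 2 genes can depend on which transcripts are assigned to which gene. This was not tested. The 250 bases before the annotated start are in lower case and the 50 from the start are in capitals.
Cers1 and Gdf1 shared start, chr8:70315525-70315824, plus strand: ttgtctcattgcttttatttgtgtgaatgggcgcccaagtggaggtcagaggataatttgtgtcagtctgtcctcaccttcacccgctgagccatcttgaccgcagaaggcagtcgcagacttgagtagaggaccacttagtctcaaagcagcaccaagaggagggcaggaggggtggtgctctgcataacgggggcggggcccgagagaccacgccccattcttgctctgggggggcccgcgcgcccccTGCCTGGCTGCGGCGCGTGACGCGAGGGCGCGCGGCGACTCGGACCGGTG
Gdf1 internal start, chr8:70329515-70329814, plus strand: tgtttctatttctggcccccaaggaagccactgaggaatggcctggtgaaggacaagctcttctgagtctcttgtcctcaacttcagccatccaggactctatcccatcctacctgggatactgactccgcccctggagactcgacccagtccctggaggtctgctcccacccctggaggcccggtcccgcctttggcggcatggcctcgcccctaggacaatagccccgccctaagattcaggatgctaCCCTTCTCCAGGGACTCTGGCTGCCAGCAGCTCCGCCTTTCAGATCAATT

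Gdf1 had 3, 2 and 3 counts in sham saline libraries 1, 2 and 3. In the other 12 libraries it had between 781 and 1868 counts. The groups did not overlap, and no library of the other 3 groups came near the sham saline level. Pooled, this was 8 counts in sham saline, or 0.0916 CPM without TMM factors (exact Poisson 95% interval 0.0396 to 0.181), against 15026 counts in the others, or 40.6 CPM (39.99 to 41.3). The ratio of sham saline to the others was 0.00225 (exact 95% interval 0.000973 to 0.00444), an interval that covers counting error only.

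Cers1 went the other way. It had 78.0, 65.5 and 87.3 CPM in sham saline libraries 1, 2 and 3, against 25.5 CPM at the lowest, 39.9 CPM at the median and 51.2 CPM at the highest in the other 12. Every sham saline library lay above every other library. The log2 fold change was 0.95 ± 0.13 (SE). The sum of the 2 genes was 77.0 ± 10.9 CPM in sham saline (SD, n = 3) and 79.2 ± 14.5 CPM in the others (SD, n = 12), so the sums differed by less than their spread. Cers1 took 99.9% of that sum in each sham saline library, against 46.3% to 63.5% in the other 12. Of 4106 pairs of overlapping tested genes with a mean sum of at least 10 CPM, 3.63% had shares that did not overlap between the groups. The share of reads that each library's transcript models gave to either gene cannot be told apart here from a change in the transcripts, since the files hold no reads. Gdf1 was called in 26 of 26 other settings and Cers1 in 24 of 26.

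Zfyve27 (ENSMUSG00000018820, chr19:42163951-42194590, plus strand), which encodes protrudin, a protein of neurite outgrowth and of the endoplasmic reticulum, was the other gene with a wide gap. It had 22.5, 17.1 and 21.3 CPM in sham saline libraries 1, 2 and 3, against 54.3 to 73.1 CPM in the other 12. The log2 fold change was -1.62 ± 0.10 (SE). The deposited counts and FPKM values together give an implied transcript length for each gene in each library, which is approximate. For mt-Nd1, at positions 2751 to 3707 of the mitochondrial genome, it ran from 1052 to 1100 bases across libraries. For Zfyve27 this implied length was 1482, 1536 and 1471 bases in sham saline, against 2621 to 3096 bases in the others. Both the level and the implied length were thus lower in all 3 sham saline libraries, and neither overlapped. Among 13026 genes measured in every library, implied lengths did not overlap in 1.49%, with 81 longer and 113 shorter in sham saline, and Zfyve27 had the widest gap. N4bp2l2 came next, at 4050 ± 288 bases in sham saline and 2515 ± 280 bases in the others (SD, n = 3 and 12).

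**Figure D1:**
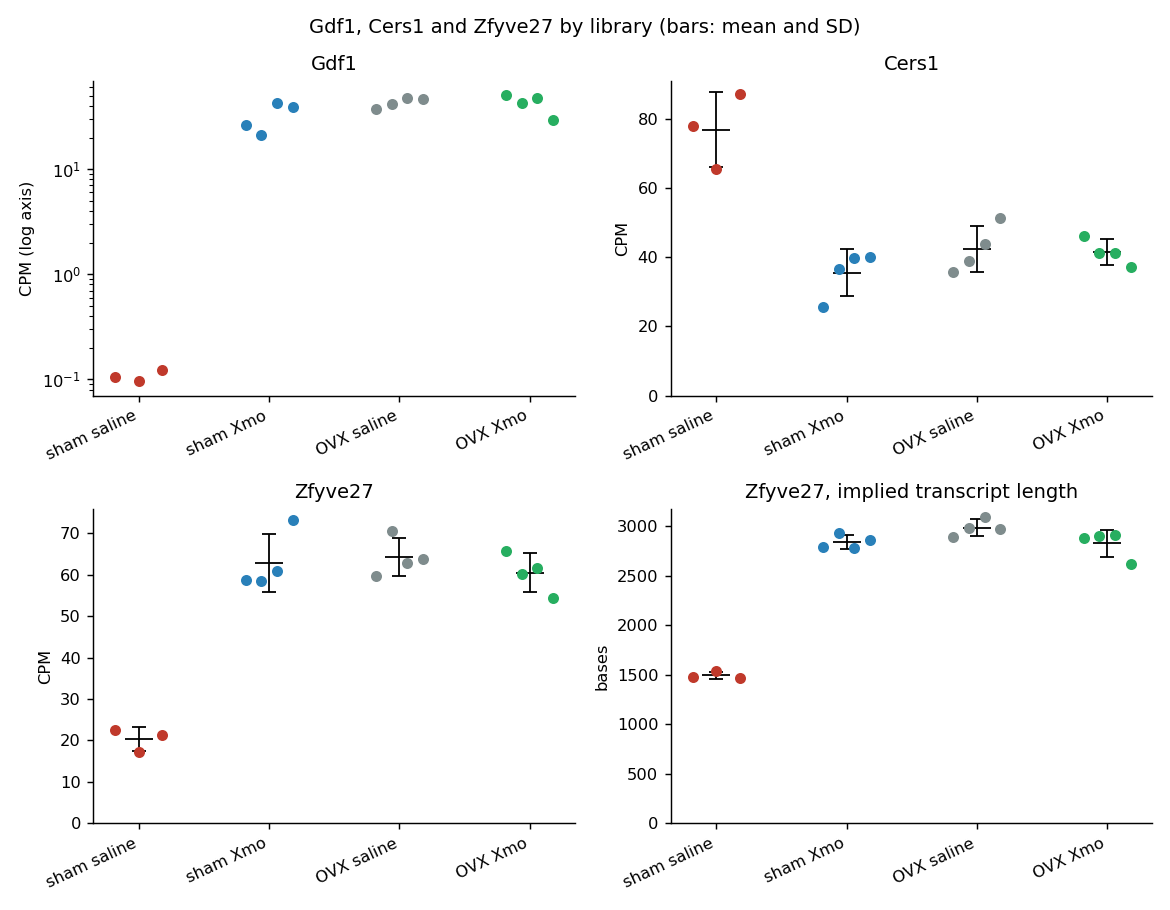
Level of Gdf1 (CPM, log axis), Cers1 and Zfyve27 (CPM) and implied transcript length of Zfyve27 (bases) in each mRNA library by group, where points are libraries and bars the mean and SD (no bars on the log axis). The 3 sham saline libraries lie below the other 12 for Gdf1, Zfyve27 and the Zfyve27 length, and above them for Cers1.

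Across all tested genes, 1446 were called (7.24%). Of these 612 rose (3.06%) and 834 fell (4.18%) in sham saline. The values did not overlap between the groups for 1009 genes (5.05%), 339 of them higher (1.7%) and 670 lower (3.36%) in sham saline, and 785 genes were both called and without overlap (3.93%). The rule chose this contrast, so these shares are its background and not a result. Leaving out single libraries changed the count of 1446: it was 188 without sham saline 2, 318 without sham saline 3, 2384 without sham Xmo 1 and 963 without OVX saline 3. Without both sham Xmo 1 and OVX Xmo 4, a choice that favours more calls, it was 3296, with 1596 higher and 1700 lower.

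Set against each group alone, sham saline gave 1202 called genes against OVX saline (6.37%), 6 against sham Xmo (0.0315%) and 4 against OVX Xmo (0.0212%). These 3 comparisons share the sham saline libraries, and the differences between them were not tested. The balance of the calls also differed, with 637 higher and 565 lower over OVX saline. For the mitochondrial protein genes the median log2 fold changes were 1.25 over sham Xmo, 1.48 over OVX saline and 1.44 over OVX Xmo. For the nuclear respiratory chain genes they were -0.23, -0.29 and -0.21 in the same order. Other groups varied more. Their medians were -0.20, -0.26 and -0.06 for the ribosomal protein genes and 0.47, 0.21 and 0.09 for the synaptic vesicle genes, in that order. Gdf1 and Zfyve27 were called in all 3 comparisons. The others called over sham Xmo were Cdc42se1, Cited2, Tardbp and Gm22133, and those called over OVX Xmo were Pafah1b1 and Casp2; these were named because the counts were this small.

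Comparisons among the other 3 groups hold no sham saline library in their contrast, but they use the counts on which the pooling was chosen. There edgeR called 1 gene between sham Xmo and OVX saline (0.00501%), 0 between OVX Xmo and OVX saline (0%) and 2 between OVX Xmo and sham Xmo (0.01%). At an unadjusted p under 0.05 the counts were 1416, 834 and 2027 in that order, and DESeq2 called 50, 3 and 76. The genes called by edgeR were Gm22133 in the first and the last comparison and AC166936.1 in the last, named for the same reason.

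All 13 protein genes of the mitochondrial genome had positive fold changes. Of these 12 rose (92.3%, against 3.06% of all genes) and mt-Atp6 was not called. Without both sham Xmo 1 and OVX Xmo 4 all 13 rose. Their median log2 fold change was 1.35, against -0.02 over all genes tested. They took 19.0%, 34.1% and 24.2% of all counts in sham saline libraries 1, 2 and 3, against 11.9% at the lowest, 14.5% at the median and 19.2% at the highest in the other 12. Sham Xmo 1, at 19.2%, was the only other library above the lowest sham saline library. The means differed by 10.96 percentage points, and by 6.78 without sham saline 2. As a share of deposited TPM, which is per length, the groups did not overlap, at 34.7% to 50.3% in sham saline and 22.5% to 34.4% in the others. The cause of the higher share was not tested. In bulk tissue, more cells rich in mitochondria and more mitochondrial RNA per cell, for example, cannot be told apart.

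The rises were uneven along the mitochondrial genome. The largest among the protein genes was in mt-Nd6, a complex I subunit and the one protein gene on the minus strand of that genome, at 5550, 16581 and 9458 CPM in sham saline libraries 1, 2 and 3. In the others it had 1298 CPM at the lowest, 2076 CPM at the median and 4824 CPM at the highest. The groups did not overlap, and the highest of the others were sham Xmo 1 and OVX Xmo 4, at 4824 and 4324 CPM. The log2 fold change was 2.11 ± 0.31 (SE).

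The complex I genes mt-Nd4l, mt-Nd1, mt-Nd4, mt-Nd2 and mt-Nd5 had log2 fold changes of 1.83, 1.62, 1.5, 1.46 and 1.35, and mt-Nd3 had 0.98. The ATP synthase gene mt-Atp8 had 1.71 and mt-Atp6 had 1.27. The cytochrome b gene mt-Cytb of complex III had 1.04. Of the cytochrome oxidase genes of complex IV, mt-Co2 had 1.05, and mt-Co1 and mt-Co3 had the smallest values of the 13, at 0.65 and 0.48. Without sham saline 2 neither mt-Co1 (0.41) nor mt-Co3 (0.23) was called, and mt-Nd2, mt-Nd4, mt-Nd5 and mt-Cytb had 0.97, 0.99, 0.89 and 0.65. The most abundant of the 13 in the other 12 libraries was mt-Co1. Its level was 64161 ± 17871 CPM in sham saline, against 40853 ± 4860 CPM in the others (SD, n = 3 and 12). Adjacent genes overlap in these annotations, as do mt-Atp8 and mt-Atp6, so reads at their borders may be shared. Within the 13, mt-Nd6 took 2.84%, 3.53% and 3.28% of the counts in sham saline, against 1.19% to 2.59% in the others, so the makeup of the class also differed.

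The rRNA gene mt-Rnr2 rose by a log2 fold change of 0.84, and mt-Rnr1 had 0.81 without being called. The call of mt-Rnr2 held in 8 of 26 other settings. Both were below the median of the protein genes. Of the 22 mitochondrial tRNA genes, 21 passed the filter on low counts, and all 21 had positive fold changes. Of these 13 rose (61.9%, against 3.06% of all genes). The 13 tested tRNA genes on the plus strand had a median of 1.60 with 11 called, and the 8 on the minus strand had 0.70 with 2 called. mt-Tm, the methionine tRNA, had 81.0, 315 and 153 CPM in sham saline libraries 1, 2 and 3, against 40.5 to 63.9 CPM in the others, and the groups did not overlap. Its log2 fold change was 1.93, and 1.29 without sham saline 2. mt-Te, the glutamic acid tRNA next to mt-Nd6 on the minus strand, had the second largest tRNA fold change at 2.55, after mt-Td at 2.83. Nuclear copies of mitochondrial sequence can take reads from these genes, so single values are uncertain.

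**Figure D2:**
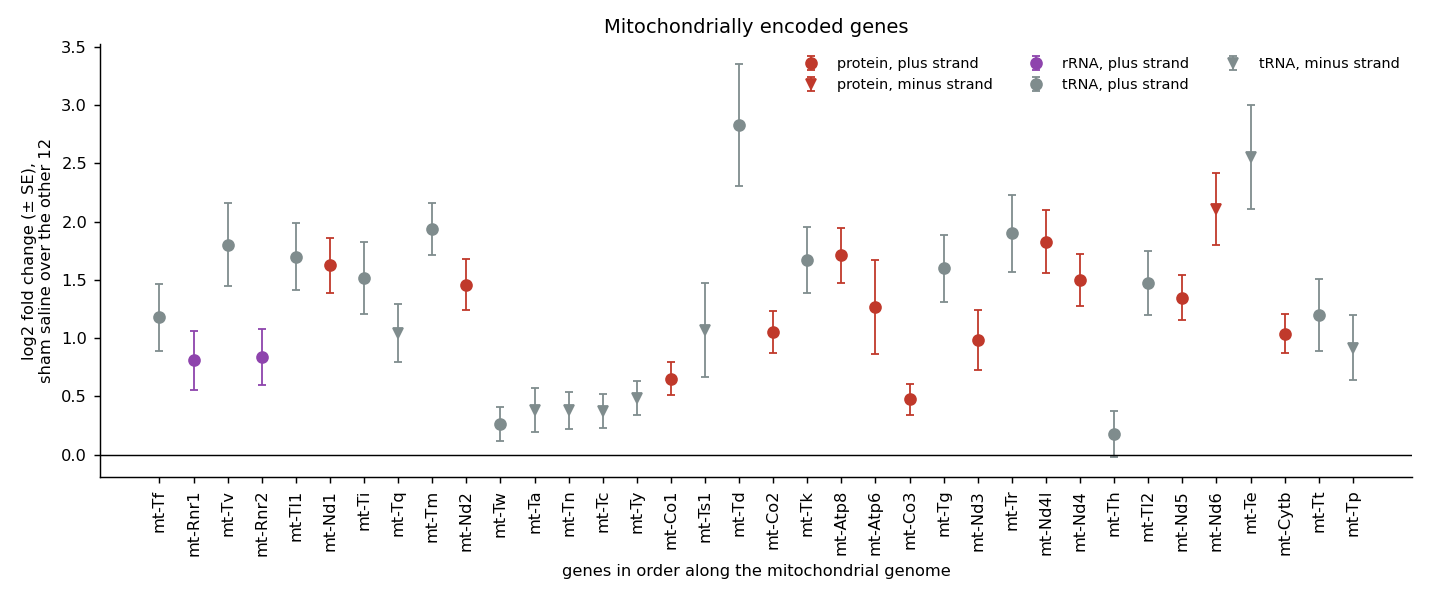
Log2 fold change (± SE) of each tested mitochondrially encoded gene in sham saline over the other 12 libraries, in order along the mitochondrial genome; colour marks the kind of RNA and the marker the strand. All values are above 0, with mt-Nd6 (2.11) and mt-Te (2.55) among the highest and mt-Co3 (0.48) the lowest protein gene.

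Nuclear genes of the respiratory chain moved the other way. Of 75 tested, 29 fell (38.7%, against 4.18% of all genes), 1 rose (1.33%, against 3.06%) and 45 did not pass the test. Their median log2 fold change was -0.26. All 4 complex II genes fell, as did 7 of 10 complex IV genes, 11 of 37 of complex I, 3 of 9 of complex III and 4 of 14 of ATP synthase. Their sum was 0.799%, 0.707% and 0.707% of non-mitochondrial counts in sham saline libraries 1, 2 and 3, against 0.810% to 0.986% in the others. The groups did not overlap; sham Xmo 1 (0.810%) and OVX Xmo 4 (0.821%) were the nearest.

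Atp5e, the epsilon subunit of ATP synthase, had 21.1, 21.0 and 18.4 CPM in sham saline, against 27.9 to 41.5 CPM in the others. Its log2 fold change was -0.78 ± 0.12 (SE), the largest fall in the list. Cox5a, a complex IV subunit, had 33.8, 36.3 and 29.6 CPM in sham saline, against 39.2 to 63.2 CPM in the others. Neither gene overlapped between the groups. Cox8a and Cox6a1, also of complex IV, fell by 0.64 and 0.65 on the log2 scale.

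Ribosomal protein genes gave a similar but smaller picture. Of 77 cytosolic ribosomal protein genes, 16 fell, 1 rose and 60 did not pass the test, with a median log2 fold change of -0.19. Both subunits were involved, with medians of -0.15 for 46 large-subunit genes and -0.22 for 31 small-subunit genes. The genes that fell most were Rps14, Rpl8 and Rps29, by 0.70, 0.70 and 0.68 on the log2 scale. Rpl24 rose by 0.87; it overlaps Gm28037 on the same strand, and its share of that pair was 93.1% in sham saline and 62.9% in the others, with overlap between libraries. Many ribosomal protein genes have near-identical pseudogenes, so counts may be split among copies. As a share of TPM the class held 2.12%, 1.42% and 1.60% in sham saline, against 2.19% to 3.20% in the others, without overlap. Of non-mitochondrial counts it held 1.24%, 1.33% and 1.11% in sham saline, against 1.19% to 1.64% in the others, with overlap. As a share of all counts OVX Xmo 4, at 0.978%, lay within the sham saline range of 0.824% to 0.988%.

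The proteasome, which degrades tagged proteins, showed 12 of 31 genes lower (38.7%, against 4.18% of all genes) and 0 higher, with a median of -0.23. Psmb4 and Psmb5, subunits of its core, fell by 0.62 each on the log2 scale, and Psmc2, of the regulatory cap, by 0.46. Of 57 mitochondrial ribosome genes 4 fell (7.02%, against 4.18% of all genes) and 0 rose, with log2 fold changes of -0.72 for Mrps28 and -0.54 for Mrpl28. Of 22 histone genes that passed the filter, out of 61 listed, 3 fell (13.6%, against 4.18% of all genes), namely Hist1h2br, Hist1h4k and Hist3h2ba. Hist1h2br was called in 5 of 25 other settings. Replication-dependent histone mRNAs lack poly(A) tails and were at low levels here, with Hist1h4k at 0.605 ± 0.192 CPM in sham saline, against a mean of 1.26 ± 0.21 CPM in the others (SD, n = 3 and 12).

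The counts of these groups rested on single libraries more than their medians did. Without sham saline 2 the falling genes were 6 of the respiratory chain, 3 of the ribosome and 3 of the proteasome, and without sham saline 3 they were 9, 1 and 3. The medians without sham saline 2 were -0.25, -0.27 and -0.21 for the same 3 groups, and 0.93 for the mitochondrial protein genes, 8 of which rose. Without both sham Xmo 1 and OVX Xmo 4, a choice that favours more calls, the falling genes were 42, 27 and 17.

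**Figure D3:**
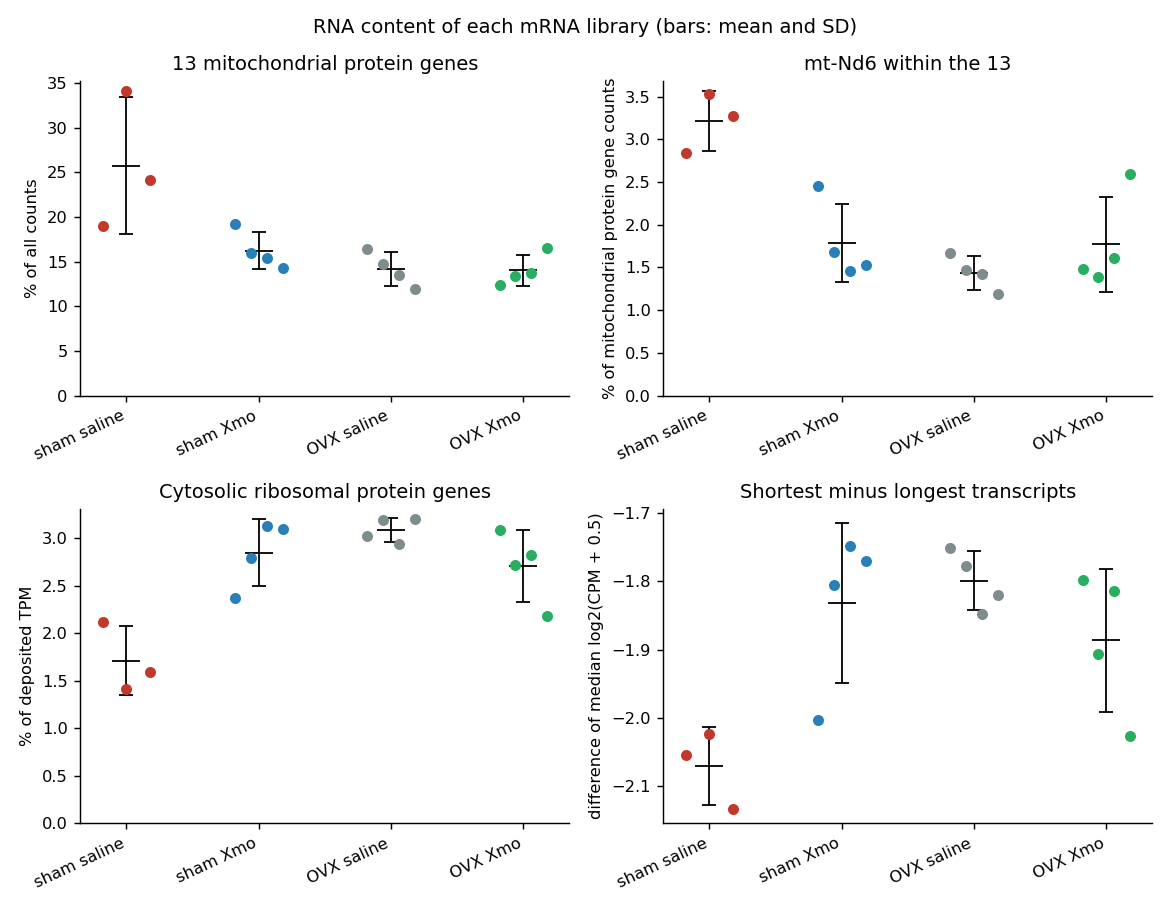
Share of counts in the 13 mitochondrial protein genes, share of mt-Nd6 within them, share of deposited TPM in cytosolic ribosomal protein genes, and the median log2(CPM + 0.5) of the shortest minus the longest bin of protein-coding genes, for each mRNA library by group (points libraries, bars mean and SD). Sham saline is high in the upper panels and low in the lower ones; one sham Xmo and one OVX Xmo library lie nearest to it.

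These falling groups consist largely of short mRNAs, and the medians over all protein-coding genes followed length. Protein-coding genes were sorted by implied transcript length into 5 bins of 3068 genes. From the shortest bin (up to 1.74 kb) to the longest (from 4.92 kb) the median log2 fold changes were -0.16, -0.08, -0.02, 0.02 and 0.08. In the shortest bin 62 genes rose (2.02%) and 321 fell (10.5%), against 3.06% and 4.18% of all genes. In the longest bin 152 rose and 40 fell. Protein-coding genes that rose had a median implied length of 3724 bases and those that fell 1989 bases, against 3020 bases over all tested. The summed share of non-mitochondrial counts was lower for the shortest bin, at 9.85% ± 0.393 in sham saline and 11.6% ± 0.789 in the others (SD, n = 3 and 12), with overlap. For the longest bin it was 30.07% ± 1.20 in sham saline and 30.04% ± 0.695 in the others, so the summed share of the longest genes, unlike their median, differed by less than its spread.

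Genomic span, which includes introns, gave a similar but shallower gradient, with medians of -0.13, -0.07, -0.04, 0.00 and 0.07 from the shortest to the longest bin. The summed share of the longest span bin also differed by less than its spread, at 26.05% ± 1.12 in sham saline and 26.03% ± 0.614 in the others. Within the third of genes with the shortest transcripts the medians rose with span, at -0.18, -0.12, -0.10, -0.07 and -0.03. Among transcripts of middle length they were -0.04, -0.05, -0.04, -0.01 and 0.03, and within the third with the longest transcripts 0.05, 0.03, 0.04, 0.05 and 0.10. Span thus ordered the medians throughout among the shortest transcripts, while in both longer classes the lowest median was in the second span bin.

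The length gradient was graded rather than a clean step. The median log2(CPM + 0.5) of the shortest bin minus that of the longest was -2.05, -2.02 and -2.13 in sham saline libraries 1, 2 and 3. In the other 12 it ran from -2.03 to -1.75. OVX Xmo 4, at -2.03, lay within the sham saline range, and sham Xmo 1, at -2.004, lay just outside it. The remaining 10 libraries lay between -1.91 and -1.75. Without these 2 libraries the shortest bin held 110 rising and 610 falling genes and the longest 490 rising and 98 falling.

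**Figure D4:**
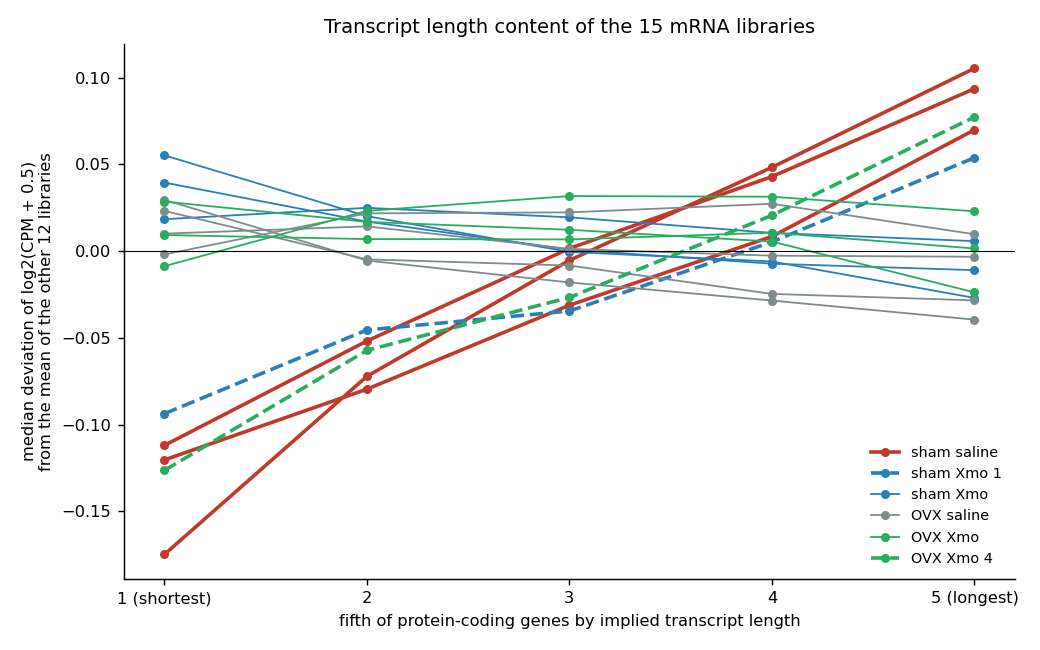
Median deviation of log2(CPM + 0.5) from the mean of the other 12 libraries for 5 bins of protein-coding genes by implied transcript length, one line per library (red sham saline; dashed sham Xmo 1 and OVX Xmo 4). The sham saline lines and the dashed lines run from negative at the shortest bin to positive at the longest, and the remaining lines are nearly flat.

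Groups of long and nuclear RNAs were on the high side. Of 36 long neuronal genes 8 rose (22.2%, against 3.06% of all genes) and 0 fell, with a median log2 fold change of 0.23. Opcml, a neuronal adhesion protein, had 302, 365 and 356 CPM in sham saline, against 189 to 313 CPM in the others, and rose by 0.50 on the log2 scale with overlap. Of the 36, 3 rose without sham saline 2 and 0 without sham saline 3, while 14 rose and 1 fell without both sham Xmo 1 and OVX Xmo 4.

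Of 32 genes for splicing and nuclear RNA-binding proteins 6 rose (18.8%, against 3.06% of all genes) and 0 fell. Pnn, a protein of nuclear speckles, had 163, 210 and 173 CPM in sham saline, against 105 to 163 CPM in the others. Its groups met at the edge, where sham Xmo 1 had 163 CPM, and did not overlap. Rbm25, a splicing regulator, rose by 0.57 and did overlap. Of 13 long noncoding RNAs kept in the nucleus 3 rose (23.1%, against 3.06% of all genes). These were Airn and Kcnq1ot1, antisense transcripts of imprinted regions, at 0.79 and 0.76, and Snhg11, a neuronal host of small nucleolar RNAs, at 0.56. Without sham saline 2 Kcnq1ot1 had 0.46 and was not called. None of the 3 separated the groups, and the list as a whole held 1.35% to 1.64% of non-mitochondrial counts in sham saline and 1.08% to 1.59% in the others. The signal recognition particle RNAs Rn7s1 and Rn7s2 rose by 1.75 each; they are near-identical copies whose counts cannot be separated.

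Introns could not be measured directly, because exons were not among the annotations used here. Genes whose whole span lies within that of another gene were examined instead. Of 2018 such genes 61 rose (3.02%) and 38 fell (1.88%), against 3.06% and 4.18% of all genes. Their median log2 fold change was 0.02, close to the -0.02 of all genes. It was -0.01 among those with a mean count of at least 50. Of 892 on the strand of their host 31 rose (3.48%) and 14 fell (1.57%), with a median of 0.06. Of 526 of these that have no RefSeq gene type 23 rose (4.37%) and 1 fell (0.190%), with a median of 0.22. Over all 2232 tested genes with no RefSeq gene type, mitochondrial ones included, 4.08% rose and 0.762% fell, with a median of 0.11. Of the 172 protein-coding genes on the strand of their host 5 rose (2.91%) and 9 fell (5.23%), with a median of -0.11. As a share of non-mitochondrial counts the 892 genes were lower, at 0.663%, 0.614% and 0.668% in sham saline, against 0.670% to 0.714% in the others. The median and the summed share of these genes thus differed in sign. Of 885 pseudogenes, which are mostly short and processed, 3 rose (0.339%) and 35 fell (3.95%), against 3.06% and 4.18% of all genes. Their median was -0.26. The summed share of all 6517 listed pseudogenes, tested or not, went the other way, at 3.31%, 5.38% and 4.08% of all counts in sham saline libraries 1, 2 and 3, against 1.46% to 3.35% in the others, with overlap at sham Xmo 1.

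The named genes were chosen by size of change among genes that were called, did not overlap and averaged at least 5 CPM in the higher group. Beyond those already given, the rising ones held blood and vessel genes. Lcn2, an iron-trafficking protein of neutrophils and reactive cells, had 4.65, 98.6 and 8.42 CPM in sham saline libraries 1, 2 and 3, against 0 to 2.13 CPM in the others. S100a9, a neutrophil calcium-binding protein, had 2.06, 12.1 and 2.75 CPM in sham saline, against 0 to 1.19 CPM in the others. Sham saline 2 was far above the other sham saline libraries for both. Their log2 fold changes were 5.87 and 3.55, and without it 3.37 and 2.34, the second of which was not called.

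The 7 neutrophil markers gave 6 tested genes, of which 5 rose (83.3%, against 3.06% of all genes). Retnlg was among them, at 13, 70 and 17 counts in sham saline libraries 1, 2 and 3, against 0 to 9 in the others. It passed the filter on low counts only through sham saline, so its direction was set beforehand and its rise is no support. The 3 sums were 8.73, 140 and 16.9 CPM in sham saline, against 0 to 6.66 CPM in the others. Of the 11 tested neutrophil and haemoglobin genes 1 rose without sham saline 2. The 5 haemoglobin genes had 0 calls and summed to 398 to 2453 CPM in sham saline and 504 to 4921 CPM in the others, so blood markers did not move as one.

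Vwf, the von Willebrand factor of endothelium, had 21.4, 41.5 and 22.1 CPM in sham saline, against 6.24 to 15.6 CPM in the others. Clec14a, an endothelial lectin, had 7.89, 11.3 and 7.76 CPM in sham saline, against 3.16 to 5.79 CPM in the others. Both separated the groups. Igfbp7, a secreted protein of vessels, and Osmr, the oncostatin M receptor, also separated them, with log2 fold changes of 1.15 and 1.33. Without sham saline 2 these were 0.49 and 0.54, and neither was called. Of 15 endothelial markers 4 rose (26.7%, against 3.06% of all genes) and 0 fell, with a median of 0.40. Without sham saline 2, 1 of them rose and their median was 0.13. They summed to 651 to 834 CPM in sham saline, against 576 to 763 CPM in the others, with overlap. The part of vessel or blood content in other results was not tested.

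Other named rising genes act in neurons. Clip3, a Golgi and microtubule linker, had 418, 414 and 630 CPM in sham saline, against 199 to 304 CPM in the others. Pura, a nucleic acid-binding protein of neurons, had 33.3, 42.5 and 41.4 CPM in sham saline, against 15.2 to 25.9 CPM in the others. Both separated the groups, and for Clip3 sham saline 3 was the highest library. Of 22 synaptic vesicle genes 4 rose (18.2%, against 3.06% of all genes), among them Syn1, Vamp2 and Pclo, and 0 fell.

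Cox20, an assembly factor of cytochrome oxidase, had 17.6, 34.6 and 21.6 CPM in sham saline, against 4.43 to 13.8 CPM in the others. It overlaps Hnrnpu on the other strand, and its share of that pair was 4.83% ± 0.925 in sham saline and 1.86% ± 0.690 in the others (SD, n = 3 and 12). The labels do not say whether counting used strand, so reads of the 2 genes cannot be told apart. Pcdhga2 and Pcdhgb1, of the clustered protocadherins that mark neuronal identity, rose through single libraries. Pcdhga2 had 175, 20.6 and 9.24 CPM in sham saline, against 3.96 to 8.20 CPM in the others, and Pcdhgb1 had 14.1, 122 and 15.1 CPM in sham saline, against 3.97 to 12.2 CPM in the others. Their log2 fold changes were 3.47 and 2.60; Pcdhga2 had 1.28 without sham saline 1, and Pcdhgb1 had 0.83 without sham saline 2 and was not called. Single libraries of the other groups were also high in members of that cluster. Pcdhga9 had 172 CPM in OVX saline 4 and Pcdhgb7 had 133 CPM in OVX Xmo 2, against medians of 4.48 and 7.57 CPM over the other 12 libraries. Genes of that cluster share their last exons, so their counts depend on how shared reads were assigned and are uncertain.

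The named falling genes were of diverse function. Casp2, an apoptotic protease, had 4.12, 2.98 and 3.20 CPM in sham saline, against 6.27 to 12.3 CPM in the others. Timm22, of the mitochondrial inner membrane import machinery, had 3.35, 3.27 and 2.75 CPM in sham saline, against 4.49 to 12.3 CPM in the others. Fam134c, of the endoplasmic reticulum, had 13.4, 38.2 and 8.46 CPM in sham saline, against 48.8 to 59.7 CPM in the others. All 3 separated the groups, with sham saline 2 standing between the rest of its group and the others for Fam134c. Its log2 fold change was -1.42, and -2.27 without sham saline 2.

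Sh2d5, an adaptor protein of brain, had 11.8, 10.5 and 11.5 CPM in sham saline, against 16.2 to 57.1 CPM in the others. It lies almost wholly within Kif17, a kinesin of dendrites, on the same strand, and its share of the pair was 37.1% ± 1.51 in sham saline and 54.4% ± 11.97 in the others. It was called in 12 of 26 other settings, the fewest of the 28 genes named by size of change or gap. The remaining falling genes were Efcc1, 1110065P20Rik, Tmem160, Zbed5, 4933407K13Rik and Bloc1s2, with log2 fold changes of -1.21 to -0.63. Of the 28 genes, 12 overlap another tested gene (42.9%), against 37.7% of all tested genes.

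The lists tied to the treatments were small. Of 11 oestrogen-responsive genes tested 2 rose (18.2%, against 3.06% of all genes), namely Pgr, the progesterone receptor, at 22.7, 21.2 and 24.4 CPM in sham saline, against 12.6 to 21.0 CPM in the others, and Igf1r, the insulin-like growth factor receptor, at 79.9, 82.9 and 82.8 CPM in sham saline, against 57.8 to 70.4 CPM in the others. Both separated the groups, Pgr by a narrow margin, and their log2 fold changes were 0.49 and 0.37. Pgr was called in 11 of 26 other settings and Igf1r in 24. Of 20 genes of the Nrf2 antioxidant response, which xanthohumol is known to engage, 2 rose and 2 fell, namely Cat and Gclc, and Taldo1 and Sod1. These were 10% in each direction, against 3.06% of all genes higher and 4.18% lower. Gclc was called in 14 of 26 other settings. Of 20 immediate early genes, which neurons switch on with activity, 0 were called although 19 were higher, with a median of 0.21.

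Of the other cell type lists, interneuron, oligodendrocyte, meninges, ependymal and thalamus and habenula markers had 0 calls. Choroid plexus markers, 15 genes with 0 calls, summed to 225 to 1324 CPM in sham saline and 87.5 to 8714 CPM in the others, a spread between libraries within groups. Of 14 astrocyte markers 5 were higher, with a median of -0.13. Sox9 and Atp1b2 rose (14.3%, against 3.06% of all genes) and Mlc1 fell (7.14%, against 4.18%). Of 14 microglial markers 3 were higher, with a median of -0.19. Only Csf1r fell (7.14%), and it was called in 8 of 26 other settings. Of 13 neocortical markers 11 were higher, with a median of 0.27, and only Rorb rose (7.69%).

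**Figure D5:**
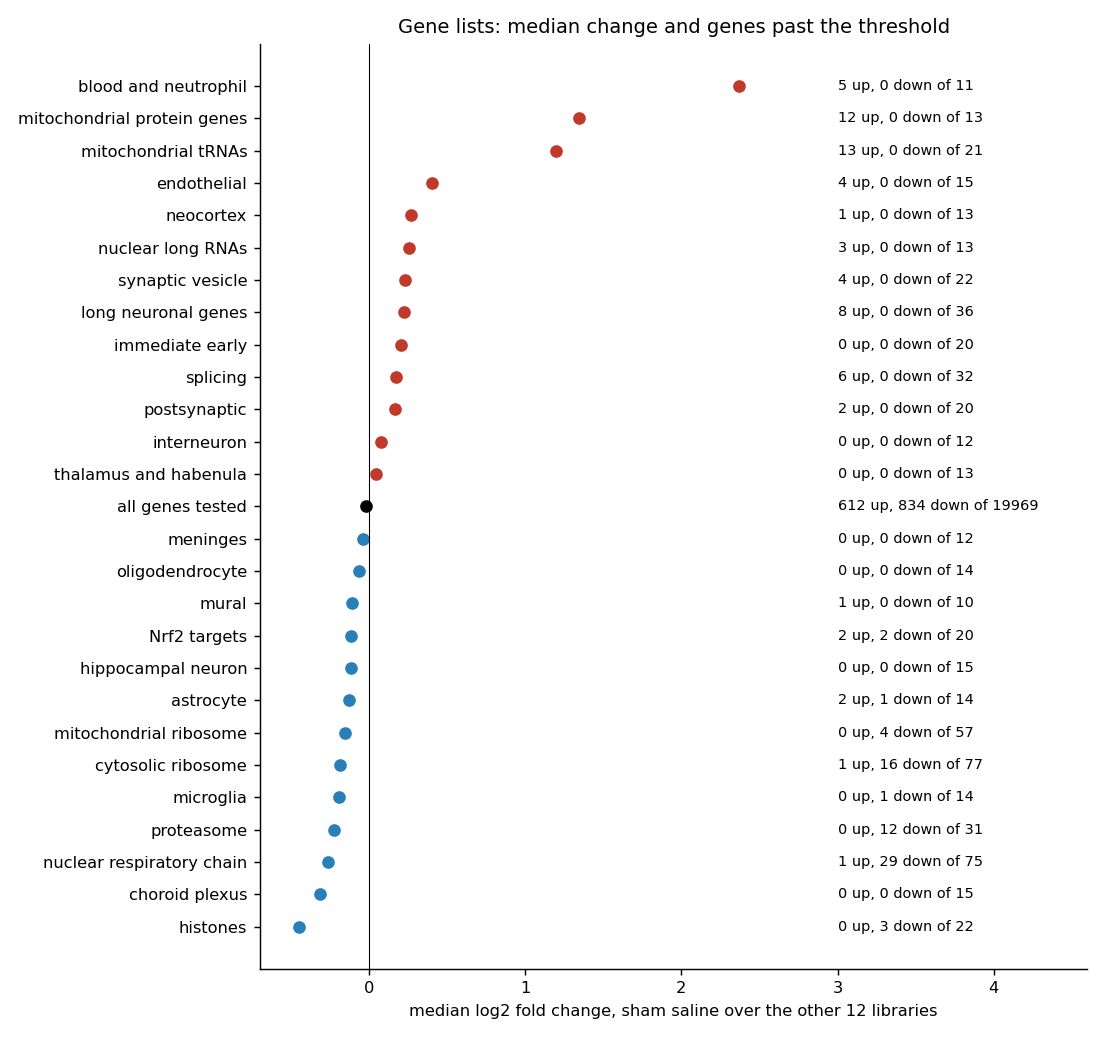
Median log2 fold change of gene lists in sham saline over the other 12 libraries, with the number of genes called in each direction of those tested (red above 0, blue below 0, black all genes). The protein genes and the tRNA genes of the mitochondrial genome stand at 1.35 and 1.20, nuclear respiratory chain genes at -0.26 and hippocampal neuron markers, with 0 calls, at -0.12.

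The miRNA libraries did not enter the choice of the contrast and were tested. Sham saline (3 libraries) was set against the other 9, at depths of 9660869 to 10962296 counts. Of 605 miRNAs edgeR called 0 (0%), 38 had an unadjusted p under 0.05, and DESeq2 called 2. Values did not overlap for 9 miRNAs (1.49%). The 5 miRNAs with the smallest unadjusted p are shown with 2 neighbours of miR-183 on chromosome 6, miR-182 and miR-96, added after their values were seen; the seeds, bases 2 to 8, are in capitals, and all sequences equal the RefSeq mature sequences.
miR-200a-3p: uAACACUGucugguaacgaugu
miR-200a-5p: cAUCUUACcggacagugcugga
let-7a-2-3p: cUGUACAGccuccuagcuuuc
let-7f-2-3p: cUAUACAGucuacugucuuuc
miR-183-5p: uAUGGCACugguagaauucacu
miR-182-5p: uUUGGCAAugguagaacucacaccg
miR-96-5p: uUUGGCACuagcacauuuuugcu
No seed was shared by any pair of these sequences.

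miR-183-5p, of a sensory and epithelial miRNA cluster, had 20.6, 11.2 and 13.8 CPM in sham saline, against 27.03 CPM at the lowest, 42.9 CPM at the median and 205 CPM at the highest in the other 9. The groups did not overlap, and the highest value was in OVX saline 3. Its log2 fold change was -2.01 ± 0.61 (SE), with an adjusted p of 0.509 in edgeR and 0.0286 in DESeq2. miR-182-5p and miR-96-5p had log2 fold changes of -1.77 and -1.93, each with an adjusted p of 0.509 in edgeR.

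miR-200a-3p, of an epithelial family, had 44.7, 41.9 and 62.6 CPM in sham saline, against 62.4 to 110 CPM in the other 9, with overlap by 1 library. Its log2 fold change was -0.77 ± 0.18 (SE), with an adjusted p of 0.437 in edgeR and 0.00397 in DESeq2. let-7a-2-3p had 2.73, 2.82 and 2.67 CPM in sham saline, against 3.13 to 4.83 CPM in the others, and an adjusted p of 0.509 in edgeR. All 5 choroid plexus miRNAs and all 5 erythrocyte miRNAs listed were lower, with medians of -0.42 and -0.35 and 0 calls, against 0.01 over all miRNAs. The 8 neuronal miRNAs had a median of 0.04. Whether the mRNA and miRNA libraries of 1 label came from the same RNA is not stated.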

How the data were processed

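Per the labels, libraries were made with a TruSeq kit from 1 µg of Trizol-extracted hippocampal RNA. Named in the submitters' processing notes are FastQC 0.11.2, Trimmomatic 0.36, Bowtie2 2.3.2, StringTie 1.3.3b and the GRCm38.p6 build, with no role given. The authors deposited a gene table with counts, FPKM and TPM per library and a miRNA table with counts. A further 12 columns of the gene table carry a group name that matches no sample and were not used. The miRNA table also holds a deposited score per library, whole numbers of unstated scaling. Fitted in the same way as the miRNA counts, it gave 0 calls.

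From these, edgeR 4.0.16 (R 4.3.3, limma 3.58.1) was fitted to the counts of all 15 mRNA libraries with TMM factors and the edgeR filter on low counts by group, sham saline against the rest; miRNAs likewise. DESeq2 1.42.0 was an alternative. The fits were tested on simulated data. Tables were joined with pandas 2.3.3 and numpy 2.4.6. Implied transcript length is the count scaled by FPKM and library total, taken where the count was at least 10; changes between libraries used genes with at least 50 counts. Named genes were the 10 largest called rises and falls without overlap and with at least 5 CPM in the higher group, the 10 widest gaps each way, up to 4 called genes per list, the 6 pairs of overlapping genes with the largest shift in share, and all mitochondrial protein genes. Some genes that met this rule are not reported here. The members and lists were chosen with earlier results of these data known. Depth was 20848661 to 39140593 mRNA counts; intervals cover counting error only.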

Additional observations from a re-analysis of the deposited data

Results flagged for a closer look

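Within groups of 4 libraries, single values were compared with the rest of their group by Dixon's test on CPM. It flagged 23 values among 297 groups of 4 examined, and chance flags about 1 in 20 groups.

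Sham Xmo 1 was far from the other 3 sham Xmo libraries in 6 genes. It had 17726 CPM of mt-Nd4 and 7848 CPM of mt-Rnr2, both mitochondrial, 34.0 CPM of Kcnq1ot1, 163 CPM of Pnn and 171 CPM of Rgs5, all above the rest, and 3.96 CPM of Pcdhga2, below the rest. OVX Xmo 4 was above the other 3 OVX Xmo libraries in 6 genes, with 4324 CPM of mt-Nd6, 14613 CPM of mt-Nd5, 8450 CPM of mt-Co2, 243 CPM of Rbm25, 249 CPM of Hnrnpa2b1 and 981 CPM of Grin2b. In 11 of these 12 values the library moved toward the sham saline side, Pcdhga2 being the exception; what sets these 2 libraries apart was not tested.

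Sham Xmo 4 was high in Pcdhgb1 (10.7 CPM), Ly6c1 (44.3 CPM) and Ngp (2.05 CPM), and sham Xmo 3 in Casp2 (12.3 CPM). OVX saline 1 was high in Rn7s2 (7.81 CPM), Rn7s1 (7.79 CPM) and S100a9 (0.200 CPM, with the other 3 at 0). OVX saline 3 was high in Clip3 (254 CPM) and OVX saline 4 in Pclo (326 CPM). OVX Xmo 2 was high in Ly6c1 (28.2 CPM), and OVX Xmo 3 was low in Hist1h4k (0.862 CPM).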

How the results depend on the processing

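The 1446 mRNA calls became 2226 with DESeq2, 925 without the filter, 6 against sham Xmo alone, 4 against OVX Xmo alone and, after the data were seen, 33 and 16 with sham Xmo 1 or OVX Xmo 4 left out of those, and 3296 without both. Leaving out 1 library gave 188 to 2384 calls. The higher share of calls was 42.3%, 52.7% without sham saline 2 and 53.0% against OVX saline alone. Among the other groups, DESeq2 gave 50 calls for sham Xmo over OVX saline, 3 for OVX Xmo over OVX saline and 76 for OVX Xmo over sham Xmo, and leaving out 1 library gave 0 to 2, 0 to 1 and 0 to 3. For miRNAs, DESeq2 and sham Xmo alone each gave 2 calls, and leaving out 1 library 0. The replicate numbers did not pair the libraries (correlations of same-numbered mRNA libraries -0.21 to 0.19, over 0.1 in 2 of 21, and 2 of 15 libraries correlating best with their own number); with the number as a replicate block the calls were 683 for sham saline and 0 for both sham Xmo over OVX saline and OVX Xmo over sham Xmo. The mitochondrial share difference of 10.96 points was 6.78 to 14.4 with 1 library left out. The ribosomal difference of -0.356 points was -0.405 to -0.323, -1.17 in TPM and -0.253 without mitochondrial counts. The median for genes within others, 0.02, was 0.090 against OVX Xmo alone and -0.012 with a mean count of at least 50, where its sign turned, and the Cers1 share difference of 49.2 points was 65.0 in TPM. For Gdf1 in sham saline, 8 counts limit precision. The causes were not tested.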
